A study of Mus musculus with 44 samples.

Results

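*Cldn5*, *Pecam1*, *Flt1*, *Kdr*, *Cdh5*, *Tek*, *Slco1a4*, *Abcb1a* and *Slc2a1* are genes by which the endothelial cells of brain vessels are recognised. They were taken as a fixed list of symbols and found through the GENCODE annotation of GRCm38, and all 9 were present among the 55335 genes of the TRAP-seq count table and in the table of wild-type hippocampus. The rule that defines them uses symbols and no measured value. The question was how much of this vessel signature remained in RNA captured from neurons, and whether it moved with the isolation, the hemisphere or exercise.

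Endothelial cells line the capillaries of the brain and form the blood-brain barrier. Claudin-5 seals the tight junctions between them, VE-cadherin and PECAM-1 join neighbouring cells, and a set of transporters carries glucose inward and drugs outward. The cells are kept alive and patterned by VEGF and angiopoietin, which reach receptors on the endothelial surface, and their barrier properties depend on Wnt signals from neural cells.

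TRAP-seq reads ribosome-bound mRNA. The Emx1-NuTRAP mice descend from Emx1-IRES-Cre females crossed with NuTRAP males, and Cre switches on a tagged ribosomal protein, together with a nuclear tag, in the Emx1 lineage. That lineage is mainly excitatory neurons, with some neural progenitors and astrocytes, and endothelial cells do not belong to it. All mice were male. ELE (early-life exercise) mice had a wheel to run in on postnatal days 21 to 41, which sedentary mice did not, and all were killed on the day after. RNA came either from both hippocampi with the nuclei taken from the same homogenate (SIT, 4 ELE and 4 sedentary libraries), or from 1 hippocampus alone (separate isolation, 3 ELE and 3 sedentary libraries of each side, the other side having served for nuclei), with 1 mouse per library. The bulk reference was total RNA of the left dorsal hippocampus of C57Bl/6J mice without a transgene. These mice were sedentary or ran on days 21 to 41, 21 to 27 or 35 to 41, and had 3 min, 10 min or no training in object location memory. The 24 columns of this table could not be tied to single samples and were used as 1 unlabelled group, in which 18 column names begin with WT and 6 do not.

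The TRAP libraries held between 45895097 and 65767802 counts and the bulk columns between 39856044 and 61636303. Levels are given as CPM, counts relative to library size on 1 scale for both tables, with TMM scaling factors over the genes they share, and 1 count was worth 0.0161 to 0.0236 CPM in a TRAP library. Of the TRAP libraries, 3 stood apart. The SIT sedentary libraries NT7.2.3 and NT7.2.4 had 8.64% and 9.64% of their counts on mitochondrial genes, against 0.0704% to 0.523% in the other 18. Bulk columns had 2.52% to 10.01%. By the mean counts listed with the study the pair was left out of its SIT comparison, together with the SIT ELE mouse NT6.304. For its excluded sedentary samples the study names much ribosomal and other non-mRNA sequence, likely from an error in RNA isolation. For the exercised animal it names a wide difference from the rest. The third, the right sedentary library TG7.3.3, belongs to the separate isolations and was kept. Summed over the members other than *Slc2a1*, the level was 22.4% of the bulk mean in TG7.3.3, 15.5% in NT7.2.3 and 16.95% in NT7.2.4, against 1.37% to 4.21% in the other 17. Values with and without them are given for the members. Summed markers of excitatory neurons, the labelled target, were at 104% to 147% of the bulk mean in the 20 TRAP libraries, and those of astrocytes at 109% to 298%.

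In whole hippocampus the 9 genes were expressed at moderate levels, led by the glucose transporter. Per kilobase of exonic length, which allows genes to be compared, the bulk means were highest for *Slc2a1* at 19.9 ± 2.54 CPM per kb (SD, n = 24) and *Cldn5* at 10.6 ± 1.95 CPM per kb. *Abcb1a*, *Slco1a4*, *Flt1* and *Cdh5* followed at 4.46, 4.18, 4.13 and 3.80 CPM per kb, and neighbours among these 4 were closer than 1 SD. *Tek*, *Pecam1* and *Kdr* were lowest at 2.58, 2.20 and 1.49 CPM per kb, with *Tek* and *Pecam1* within 1 SD of each other. In the 20 TRAP libraries *Slc2a1* was again first at 7.63 ± 1.29 CPM per kb, while *Cldn5* had a mean of 1.05 CPM per kb and the other 7 lay at 0.244 CPM per kb or below, each within 1 SD of its neighbour. *Kdr*, last in bulk, was the highest of those 7 in TRAP.

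The 250 bases before the RefSeq start (GRCm38.p6) were at hand for 7 of the 9 genes, all but *Pecam1* and *Cdh5*, and are shown for *Flt1*, among the genes lowest in TRAP relative to bulk, for *Cldn5*, the junction gene with the highest bulk level per length, and for *Slc2a1*, the gene best kept in TRAP. Capitals mark GGAA, the core bound by ETS factors that act in endothelium, GGGCGG, the GC box, and ACGTG, the core of the hypoxia response element, on either strand.
Flt1, chr5:147726012-147726261, minus strand: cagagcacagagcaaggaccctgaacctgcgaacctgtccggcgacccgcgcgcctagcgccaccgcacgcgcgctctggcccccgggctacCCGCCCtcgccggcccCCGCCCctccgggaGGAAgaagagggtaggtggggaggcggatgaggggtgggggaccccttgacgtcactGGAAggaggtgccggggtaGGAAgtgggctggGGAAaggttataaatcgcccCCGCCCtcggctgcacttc
Cldn5, chr16:18776597-18776846, plus strand: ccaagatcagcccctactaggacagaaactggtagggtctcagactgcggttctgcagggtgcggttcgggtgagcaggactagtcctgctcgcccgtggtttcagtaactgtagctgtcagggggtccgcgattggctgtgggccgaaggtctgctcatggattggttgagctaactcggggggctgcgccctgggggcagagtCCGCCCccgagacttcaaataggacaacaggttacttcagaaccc
Slc2a1, chr4:119108495-119108744, plus strand: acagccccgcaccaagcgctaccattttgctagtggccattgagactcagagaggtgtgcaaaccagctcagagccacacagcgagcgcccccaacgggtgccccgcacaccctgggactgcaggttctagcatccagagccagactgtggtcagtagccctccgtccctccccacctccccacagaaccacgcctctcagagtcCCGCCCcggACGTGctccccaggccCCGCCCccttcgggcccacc
GGAA was found 4 times before *Flt1* and not before *Cldn5* or *Slc2a1*. For *Abcb1a* the RefSeq start lies far upstream of the GENCODE start, 8660077 on chromosome 5, so that its window, 8566841 to 8567090, does not adjoin the gene as counted. GGAA occurred before 5 of the 7 genes (*Tek*, *Abcb1a*, *Kdr*, *Flt1* and *Slco1a4*), but 93.4% of 32851 mouse promoters hold it in a window of this length. The GC box occurred before 4 of the 7 (*Slc2a1*, *Kdr*, *Flt1* and *Cldn5*), against 32.7% of all promoters, and ACGTG before *Slc2a1* only, against 16.6%. The absence of a match says only that these letters are not in this window.

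The junction genes were at trace levels in most TRAP libraries. *Cldn5* (ENSMUSG00000041378.2, chromosome 16, 18776847 to 18778262, plus strand) encodes claudin-5, the main tight junction protein of the barrier. In the 24 bulk columns *Cldn5* lay between 10.7 and 20.6 CPM with a median of 14.6 CPM. In the SIT libraries *Cldn5* was at 0.624, 0.0201, 0.419 and 0.412 CPM with ELE and at 0.416 and 0.664 CPM in the sedentary mice NT6.305 and NT6.306, against 5.70 CPM in NT7.2.4 and 5.72 CPM in NT7.2.3. The mice are listed here and below in the order NT6.303, TG7.4.1, NT6.304 and TG7.4.2 for SIT ELE. Apart from the NT7.2 pair, every SIT library thus held less than 1 CPM. In the left hippocampus it was at 1.08, 0.635 and 0.842 CPM with ELE and at 0.631, 1.67 and 0.221 CPM without. In the right hippocampus it was at 0.469, 0.793 and 0.342 CPM with ELE and at 0.648 and 0.389 CPM in 2 sedentary mice, against 7.93 CPM in the sedentary mouse TG7.3.3. No TRAP library reached the lowest bulk column, and the nearest was mouse TG7.3.3. The wild-type table also has a second row numbered for *Cldn5*, with 16822 counts over all columns against 17069 in the first, whose identity the table does not give. The second row was left out, so that the bulk level of *Cldn5* may be too low.

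*Cdh5* (chromosome 8, 104101625 to 104144511) encodes VE-cadherin, the adhesion molecule of endothelial adherens junctions. In the 24 bulk columns *Cdh5* lay between 4.29 and 23.7 CPM with a median of 16.05 CPM. In the SIT libraries *Cdh5* was at 0, 0, 0.230 and 0 CPM with ELE and at 0.499 and 0.0207 CPM in the sedentary mice NT6.305 and NT6.306, against 4.51 CPM in NT7.2.4 and 3.70 CPM in NT7.2.3. Outside the NT7.2 pair, VE-cadherin mRNA was absent or at a trace. On the left it was at 0.194, 0.0187 and 0.200 CPM with ELE and at 0, 0.167 and 0 CPM without. On the right it was at 0.501, 0.170 and 0.0214 CPM with ELE and at 0.229 and 0.216 CPM in 2 sedentary mice, against 3.05 CPM in the sedentary mouse TG7.3.3. The gene had no count at all in 5 of the 20 TRAP libraries. It was the only member for which TRAP and bulk overlapped, because 1 bulk column, named HC4, was at 4.29 CPM and mouse NT7.2.4 lay above it. *Pecam1*, which encodes the adhesion molecule PECAM-1 (CD31), was in bulk between 8.90 and 17.9 CPM with a median of 14.1 CPM and in 17 TRAP libraries between 0.126 and 1.18 CPM. The remaining 3 libraries had more *Pecam1*, with 1.69 CPM in NT7.2.3, 1.31 CPM in NT7.2.4 and 3.38 CPM in TG7.3.3.

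Among the receptors *Flt1* and *Tek* were at a trace in most TRAP libraries and *Kdr* was present in all. *Flt1* (chromosome 5, 147561604 to 147726011, minus strand) encodes VEGF receptor 1, which binds VEGF-A, VEGF-B and placental growth factor. In the 24 bulk columns *Flt1* lay between 26.7 and 82.1 CPM with a median of 56.7 CPM. In the SIT libraries *Flt1* was at 0.128, 0.603, 0.524 and 1.21 CPM with ELE and at 0.978 and 0.353 CPM in the sedentary mice NT6.305 and NT6.306, against 3.75 CPM in NT7.2.4 and 3.55 CPM in NT7.2.3. As for the junction genes, the NT7.2 pair was highest. In the left hippocampus it was at 0.484, 0.0747 and 1.002 CPM with ELE and at 0.158, 0.800 and 0.295 CPM without. In the right hippocampus it was at 1.16, 0.925 and 0.364 CPM with ELE and at 0.362 and 0.713 CPM in 2 sedentary mice, against 10.98 CPM in the sedentary mouse TG7.3.3. *Flt1*, the most abundant of the receptors in bulk, exceeded 1.21 CPM in the 3 named TRAP libraries only.

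*Kdr* (chromosome 5, 75932827 to 75978458, minus strand) encodes VEGF receptor 2, the main signalling receptor for VEGF-A. In the 24 bulk columns *Kdr* lay between 6.77 and 18.6 CPM with a median of 13.1 CPM. In the SIT libraries *Kdr* was at 1.63, 0.823, 0.817 and 1.44 CPM with ELE and at 1.31 and 2.65 CPM in the sedentary mice NT6.305 and NT6.306, against 4.57 CPM in NT7.2.4 and 4.28 CPM in NT7.2.3. The NT7.2 pair was again highest, but by less than for *Flt1*. On the left it was at 2.92, 1.96 and 1.32 CPM with ELE and at 2.25, 1.84 and 1.59 CPM without. On the right it was at 1.12, 1.06 and 2.10 CPM with ELE and at 2.06 and 2.79 CPM in 2 sedentary mice, against 5.48 CPM in the sedentary mouse TG7.3.3. Its TRAP libraries were never at 0 and spread over a narrower range than those of *Flt1*. *Tek* encodes TIE2, the receptor of the angiopoietins, and in bulk lay between 8.56 and 15.7 CPM with a median of 12.8 CPM. It had no count in 6 of the 20 TRAP libraries, among them NT6.305 and NT6.306, and lay between 0 and 0.628 CPM in 17. NT7.2.3, NT7.2.4 and TG7.3.3 were at 0.803, 1.72 and 2.39 CPM of *Tek*.

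Of the transporters, 2 were at low levels in TRAP and the glucose transporter was not. *Slco1a4*, an organic anion transporter of the barrier, lay between 0.0803 and 1.53 CPM in 17 TRAP libraries, against 18.3 to 37.1 CPM in bulk. *Abcb1a*, a gene for the drug efflux pump P-glycoprotein, lay between 0 and 0.684 CPM in the same libraries, against 16.1 to 33.2 CPM in bulk. For *Slco1a4* the NT7.2 pair stood highest, at 5.94 and 6.25 CPM, above TG7.3.3 at 3.40 CPM, whereas for *Abcb1a* TG7.3.3 was highest at 3.12 CPM.

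*Slc2a1* (chromosome 4, 119108711 to 119137983, plus strand) encodes GLUT1, which carries glucose across the barrier and is also made outside endothelium. In the 24 bulk columns *Slc2a1* lay between 54.9 and 85.6 CPM with a median of 71.1 CPM. In the SIT libraries *Slc2a1* was at 18.5, 21.2, 33.9 and 23.99 CPM with ELE and at 22.8 and 23.8 CPM in the sedentary mice NT6.305 and NT6.306, against 28.6 CPM in NT7.2.4 and 26.5 CPM in NT7.2.3. Here the highest SIT library was an ELE mouse, NT6.304. In the left hippocampus it was at 31, 26.1 and 36.3 CPM with ELE and at 27.4, 26.5 and 30.1 CPM without. In the right hippocampus it was at 21.6, 26.1 and 31.3 CPM with ELE and at 26.7 and 22.5 CPM in 2 sedentary mice, against 30.3 CPM in the sedentary mouse TG7.3.3. The 3 libraries with high levels of the other members lay inside the range of the rest for this gene. Every TRAP library was below the lowest bulk column, but within TRAP *Slc2a1* did not follow the other 8 genes.

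**Figure D1:**
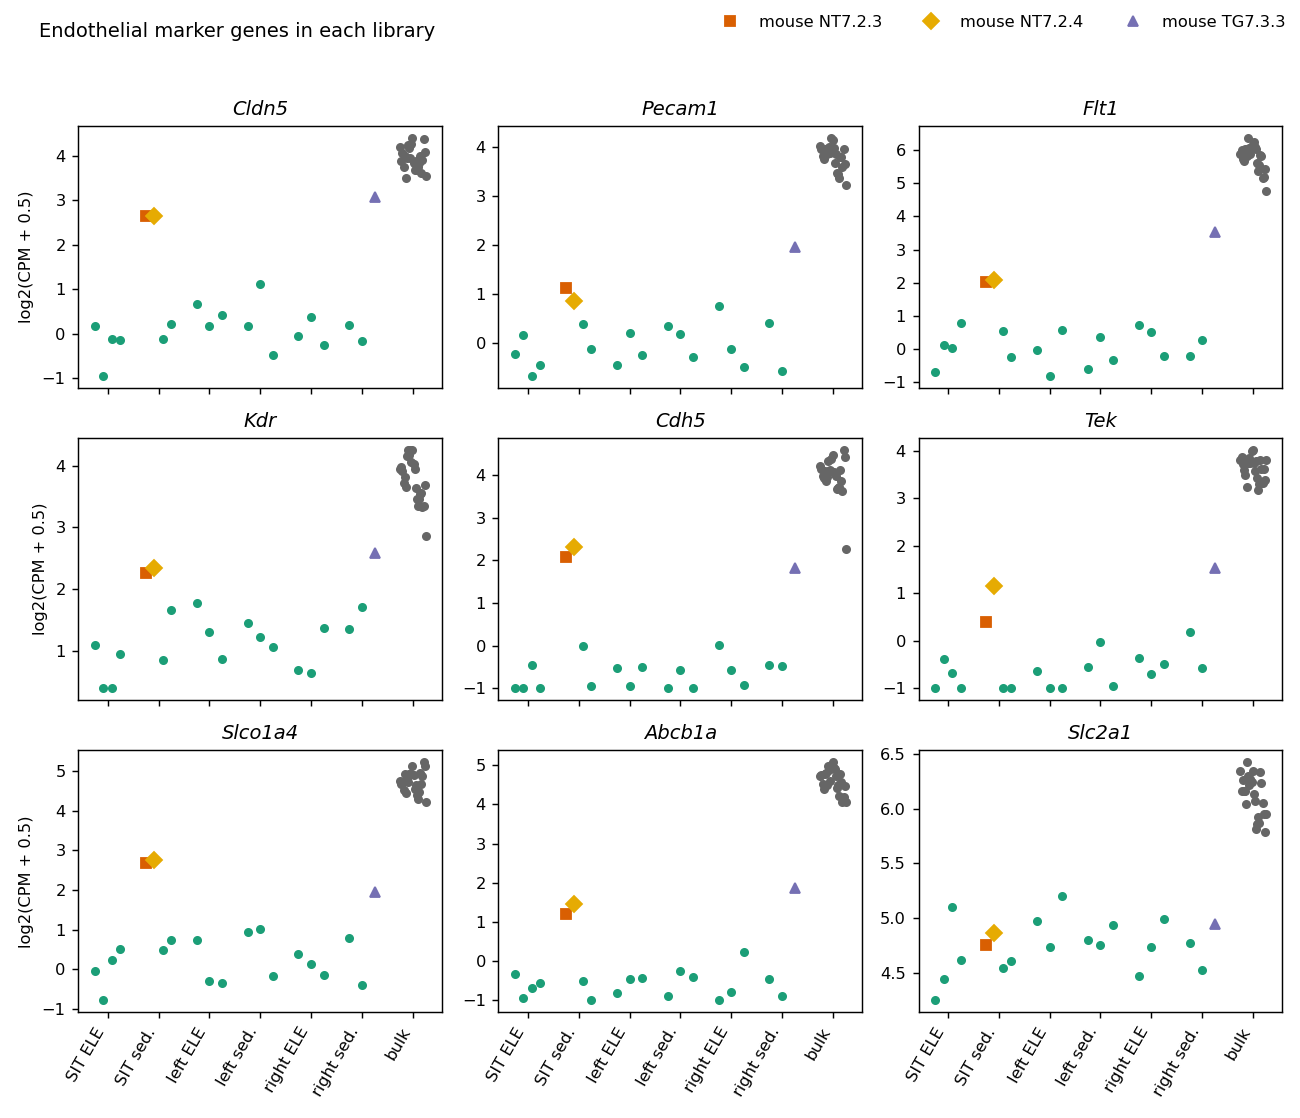
Level of each of the 9 endothelial marker genes, as log2(CPM + 0.5), in every TRAP library (green) and bulk column (grey), with 1 point per library and the groups along the horizontal axis. The libraries of mice NT7.2.3, NT7.2.4 and TG7.3.3 lie above all other TRAP libraries for 8 genes and within them for Slc2a1, and the bulk columns lie above all TRAP libraries except for 1 column in the Cdh5 panel.

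All 9 genes were lower in TRAP than in bulk. With edgeR's quasi-likelihood test over 16722 genes, the log2 fold change was -5.61 ± 0.40 (SE) for *Abcb1a*, -5.32 ± 0.38 for *Flt1*, -5.02 ± 0.42 for *Tek* and -4.55 ± 0.50 for *Cdh5*. *Slco1a4* and *Pecam1* were at -4.25 ± 0.32 and -4.23 ± 0.26, and *Cldn5* at -3.35 ± 0.36. *Kdr*, at -2.61 ± 0.18, and *Slc2a1*, at -1.38 ± 0.07, changed least. The Benjamini-Hochberg adjusted p of edgeR lay between 6.28e-24 and 2.64e-11 over the 9. Of all genes tested, 31.3% were lower by more than 1.3-fold at an adjusted p under 0.05, which makes a lower level alone common. A log2 fold change under -2 was reached by 8 of the 9, all but *Slc2a1*, and by 7.08% of all genes. For 8 of the 9, all but *Cdh5*, every TRAP library lay below every bulk column, which held for 6.12% of all genes. The permutation p was 2e-05 for each of the 9 genes with 100000 resamples, the smallest it can give.

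As a share of the bulk mean, the mean of the 20 TRAP libraries was 2.08% for *Abcb1a*, 2.55% for *Flt1*, 3.10% for *Tek* and 4.29% for *Cdh5*. It was 5.27% for *Slco1a4*, 5.35% for *Pecam1* and 9.87% for *Cldn5*, against 16.3% for *Kdr* and 38.3% for *Slc2a1*. Much of the remainder came from 3 libraries. Without NT7.2.3, NT7.2.4 and TG7.3.3 the share was 0.729% for *Abcb1a*, 0.909% for *Cdh5*, 1.07% for *Flt1* and 4.03% for *Cldn5*, but still 12.96% for *Kdr* and 37.9% for *Slc2a1*. The log2 fold changes without them reached -7.10 for *Abcb1a*, -6.74 for *Cdh5*, -6.55 for *Flt1*, -6.27 for *Tek* and -4.63 for *Cldn5*. When the second *Cldn5* row was added to the first, *Cldn5* was at -4.32. The capture of ribosomes, the transgene, the part of the hippocampus, the training, the experiment and the annotation all differ between the tables and cannot be told apart, and in bulk tissue fewer cells of a type cannot be told apart from less RNA per cell.

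**Figure D2:**
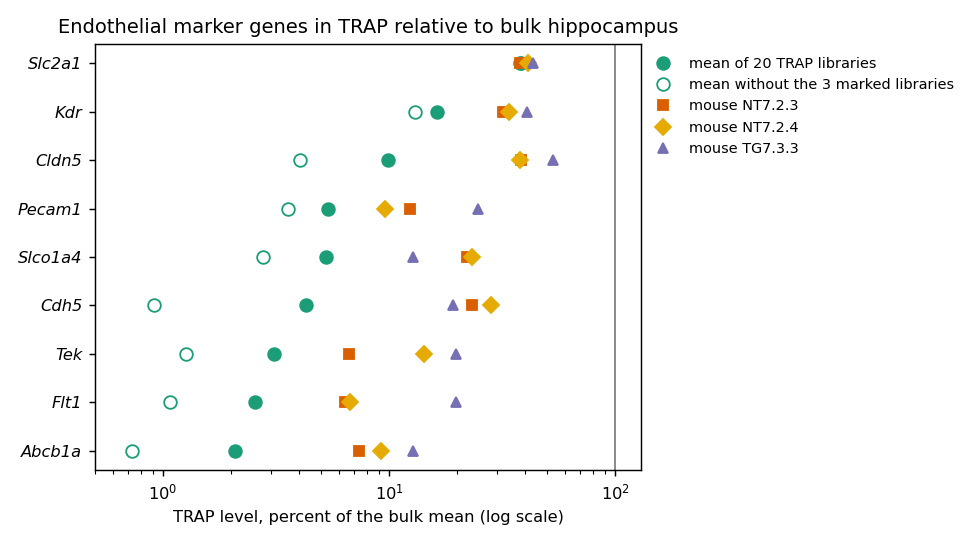
TRAP level of each gene as a percent of the mean of the 24 bulk columns, on a log axis. Filled circles are means of 20 libraries, open circles means without the 3 marked libraries, and the other symbols these 3 libraries singly. Slc2a1 lies between 37.9% and 43.5% throughout, whereas Abcb1a falls from 2.08% to 0.729%.

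Of 12 further genes of the VEGF and angiopoietin pathway, 6 were lower in TRAP and 3 were higher. The limits were an adjusted p under 0.05 and a change of more than 1.3-fold. By the same limits 5235 of all 16722 genes were lower and 4691 higher. The median log2 fold change of the 12 was -0.38, against -0.02 over all genes. The endothelial genes *Flt4* (VEGF receptor 3), *Tie1* (a TIE2 partner) and *Ptprb* (the phosphatase VE-PTP, which acts on TIE2) were lower, at -4.81, -4.98 and -4.89 on the log2 scale, close to *Flt1* and *Tek*. Without NT7.2.3, NT7.2.4 and TG7.3.3 the share of bulk went from 3.54% to 0.740% for *Flt4*, from 3.19% to 1.53% for *Tie1* and from 3.39% to 1.97% for *Ptprb*. Among the ligands *Vegfb* was higher in TRAP by 1.096 ± 0.06 (SE), *Pgf* (placental growth factor) by 0.64 ± 0.11 and *Vegfd* by 1.81 ± 0.34.

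*Vegfa*, the principal angiogenic ligand, was at 27.4 ± 10.01 CPM in TRAP (SD, n = 20) and at 35.8 ± 3.61 CPM in bulk (n = 24), and its log2 fold change of -0.38 just passed the limit of 1.3-fold. *Vegfc* stayed inside that limit at -0.37. The VEGF co-receptor *Nrp1* fell by 0.65, while *Nrp2* was at -0.00 ± 0.08 with an edgeR adjusted p of 0.992. Both neuropilins also serve axon guidance in neurons. Of the angiopoietins, *Angpt1*, the activating ligand of TIE2, was at 0.07 ± 0.11, and *Angpt2* fell by 1.25 from a bulk mean of 1.16 CPM. In each case the values describe mRNA on tagged ribosomes, not protein or signalling.

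The Wnt genes also lay on both sides of the bulk level. *Wnt7b*, with *Wnt7a* a neural ligand that maintains the barrier, was higher in TRAP by 1.38 ± 0.10 on the log2 scale, with 115 ± 32.1 CPM (SD, n = 20) against 44.4 ± 8.13 CPM in bulk. *Wnt7a* was at 0.15 ± 0.08, with an edgeR adjusted p of 0.0815. On the receiving side *Reck* and *Adgra2* (GPR124), which together pass on Wnt7 signals, were lower, at -1.44 and -1.07, and the transcription factor *Lef1* was at -2.30. The receptor *Fzd4* was at 0.27 ± 0.21 and did not pass. *Ctnnb1*, the gene of beta-catenin, and the Wnt target *Apcdd1* were also lower, at -0.75 and -0.54. Of the 8 Wnt genes 5 were lower and 1 was higher, with a median of -0.65. Of all 16722 genes 5235 were lower and 4691 higher by the same rule.

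**Figure D3:**
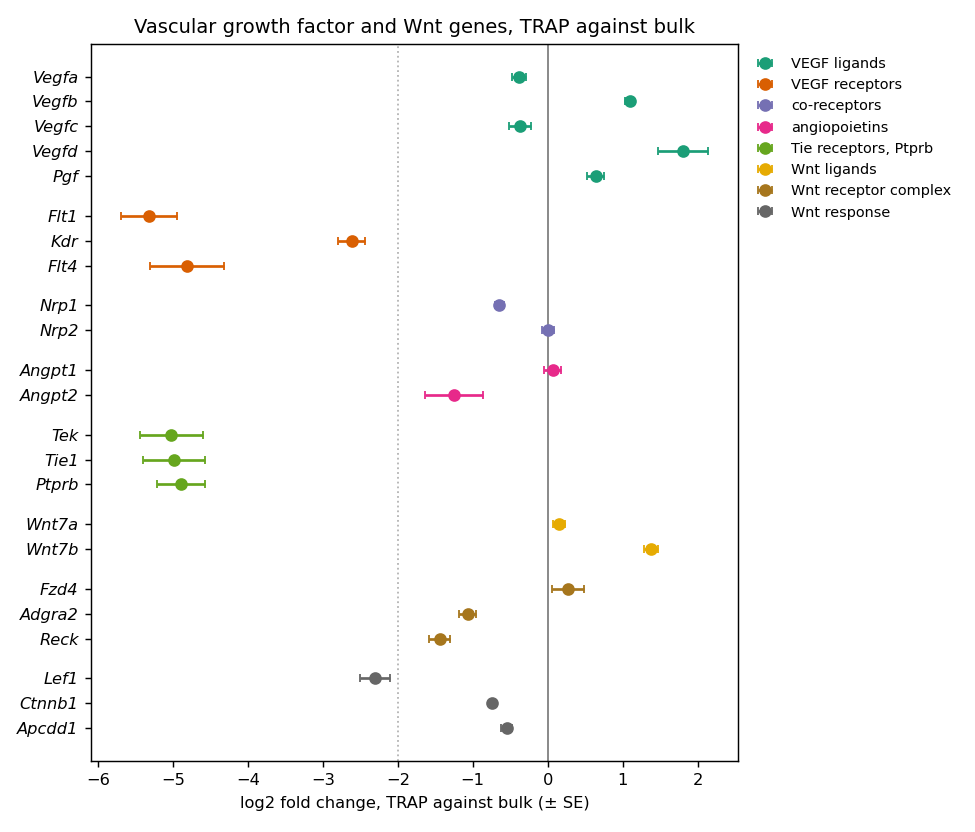
Log2 fold change of TRAP against bulk with its standard error, for ligands, receptors and response genes of the VEGF, angiopoietin and Wnt pathways. The solid line is no change and the dotted line a log2 fold change of -2. Flt1, Flt4, Kdr, Tek, Tie1, Ptprb and Lef1 lie left of the dotted line, and the ligands Vegfb, Vegfd, Pgf and Wnt7b lie right of the solid line.

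Close relatives of the members divided into genes that were kept and genes that were not. The neuronal glucose transporter *Slc2a3* was at 0.14 ± 0.04, the claudin *Cldn12* at 0.15 ± 0.04 and N-cadherin (*Cdh2*) at -0.27 ± 0.04, all inside the 1.3-fold limit, and the insulin-responsive transporter *Slc2a4* was not called, at 0.05 ± 0.38. *Abcb1b*, the second P-glycoprotein gene, fell by 0.61, to 65.6% of bulk, against 2.08% for *Abcb1a*. Since the 2 genes have similar sequences, reads may have been divided between them in either table. *Cldn3* was at 0.752 CPM in TRAP and 1.22 CPM in bulk. Of the 11 paralogues 9 passed the filter on low counts, 5 were lower, among them the endothelial *Flt4* and *Tie1*, and 0 were higher.

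Other genes of brain endothelium were lower in most cases but not in all. Of 36, all of which were tested, 29 were lower and 5 were higher, against 5235 and 4691 of all 16722 genes. A log2 fold change under -2 was reached by 16, and by 7.08% of all genes. The median log2 fold change of the 36 was -1.73, against -4.25 for the 9 members. The lowest were *Ly6a*, *Adgrl4*, *Tie1*, *Sox17* and *Ptprb*, with TRAP at 2.65%, 3.09%, 3.19%, 3.28% and 3.39% of the bulk mean. These values too moved with NT7.2.3, NT7.2.4 and TG7.3.3. Without them *Sox17* was at 0.698%, *Adgrl4* at 1.12%, *Ly6a* at 1.498%, *Tie1* at 1.53% and *Ptprb* at 1.97%, and *Fli1* (1.001%) and *Robo4* (1.33%) stood among the 5 lowest in place of *Tie1* and *Ptprb*. SOX17 is a transcription factor of arterial endothelium, and Ly6a is also known as Sca-1. At the other end were *Rgcc*, *Plvap*, *S1pr1*, *Ramp2* and *Egfl7*, at 199%, 196%, 174%, 152% and 147%. S1PR1, a receptor for sphingosine 1-phosphate, is also made by astrocytes, and its gene was at 236 CPM in TRAP. The summed astrocyte markers were above the bulk mean in every TRAP library, led by *Gfap* at 486% of bulk over the 20, but 3 of the 8 were called higher, and *Aldh1l1* and *Slc7a10* were at 43.1% and 46.6% in NT7.2.4. The part of astrocyte RNA in the endothelial values was not tested.

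The 3 libraries with more endothelial RNA did not look alike. In mouse TG7.3.3 *Flt1* was 9.04 times, *Cdh5* 6.07 times, *Cldn5* 4.74 times and *Abcb1a* 4.55 times the highest of the 17 libraries outside the 3. In NT7.2.4 the order was *Cdh5* at 8.99, *Slco1a4* at 4.10, *Cldn5* at 3.41, *Abcb1a* at 3.29 and *Flt1* at 3.09 times, and NT7.2.3 resembled it, with *Cdh5* at 7.37 and *Flt1* at 2.93 times. *Slc2a1* was below the highest of the 17 in all 3. These ratios describe libraries that were singled out by these levels and carry no test.

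Other cells of the vessel wall were low in TRAP as well. Of the pericyte markers 11 of 11 were lower than in bulk by the same rule, of smooth muscle 4 of 5, of fibroblasts 6 of 7 and of red cells 5 of 5. Of microglia 8 of 9 were lower, of oligodendrocytes 6 of 7, of inhibitory neurons 6 of 6 and of choroid plexus 6 of 7. Excitatory neurons and astrocytes had 3 and 1 of 8 markers lower and 4 and 3 higher. The median log2 fold change was -3.02 for pericytes and -3.09 for microglia, against -4.25 for the 9 endothelial genes, but the order of the last pair turned without NT7.2.3, NT7.2.4 and TG7.3.3. The median share of the bulk mean was 5.27% for the 9 genes and 11.8% for microglial markers over the 20 libraries, and 2.77% and 1.92% over the 17. For pericytes it was 12.1% and 9.42%.

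Markers of other cell types separated the 3 libraries. Summed microglial markers stood at 75.1% and 77.8% of the bulk mean in NT7.2.3 and NT7.2.4, and those of inhibitory neurons at 111% and 116%. In TG7.3.3 the same sums were at 3.16% and 7.21%, inside the ranges of the 17 others, which ran from 2.48% to 5.20% and from 5.63% to 15.2%. Pericyte markers were above the others in all 3, at 46.01%, 46.1% and 29.5% against 11.7% to 22.8% in the others, and so were those of smooth muscle, at 117%, 101% and 78.3% against 27.4% to 54.01%. In the NT7.2 pair this sum was carried by *Mylk*, at 181% and 154% of bulk, while *Acta2* was at 16.4% and 20.6%, *Myh11* at 19.7% and 30.1% and *Des* at 19.5% and 31.8%. In TG7.3.3 *Acta2* was at 149%, *Myh11* at 78.3% and *Mylk* at 51.9%. The sum of the 36 other endothelial genes was not raised in the pair, at 68.1% in NT7.2.3, the lowest of the 20 libraries, and 73.9% in NT7.2.4, against 71.1% to 89.7% in the 17, and was at 92.5% in TG7.3.3. That sum is mostly *Bsg* and *S1pr1*, at 430 and 236 CPM over the 20 libraries. Many genes low in TRAP were higher in the pair, though *Pltp* was lower, at 10.9% and 13.4% of bulk against a mean of 17.1% in the 17. *Fli1* was at 32.8% and 42.9% of bulk there against a mean of 1.001% in the 17, *Erg* at 26.8% and 40.2% against 5.07%, and *Eng* at 27.003% and 21.6% against 3.91%. Red cell genes were at 131% and 379% of bulk in the NT7.2 pair and at 7.90% in TG7.3.3, against 1.62% to 21.2% in the others. Fibroblast sums were at 153% and 149% of bulk in the pair and oligodendrocyte sums at 42.5% and 48.1%, against at most 81.5% and 37.5% in the others. In TG7.3.3 the fibroblast, choroid plexus and oligodendrocyte sums, at 32.4%, 1.91% and 37.3%, lay within the ranges of the 17, as did the choroid plexus sums of the pair. Of the 9 microglial markers only *Tmem119* had no count in TG7.3.3, and none was at 0 in the NT7.2 pair. The NT7.2 pair thus exceeded the other libraries in the summed markers of pericytes, fibroblasts, microglia, oligodendrocytes, inhibitory neurons and blood, and TG7.3.3 in those of pericytes and smooth muscle but not in those of microglia, inhibitory neurons or blood. The part of these cells in the endothelial values was not tested.

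**Figure D4:**
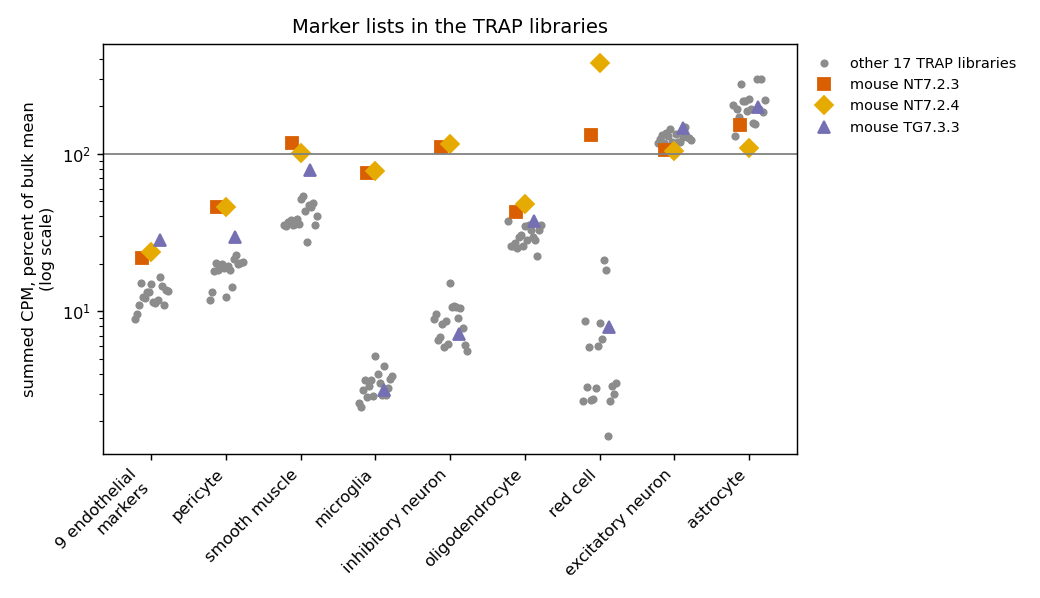
Summed level of each list of marker genes as a percent of the mean bulk level, on a log axis, with 1 grey point for each of 17 TRAP libraries and a symbol for each of the 3 libraries with more endothelial RNA. TG7.3.3 lies above the grey points for the endothelial, pericyte and smooth muscle lists. It lies among them for microglia and inhibitory neurons, for which the NT7.2 pair lies far above the grey points.

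Exercise was compared within each isolation. Calls here follow the study, at an unadjusted p under 0.05 and a change of more than 1.3-fold, and adjusted values are given beside them, with p measuring the spread between mice. In the SIT libraries that the study compared, 3 ELE and 2 sedentary, 7 members had enough counts for the test and none was called by edgeR or by DESeq2, where 2.17% of all genes were called lower. *Slco1a4* was at -1.05 ± 0.94 (log2 fold change, SE) and *Kdr* at -0.61 ± 0.51, with edgeR adjusted p of 0.99 and 0.98. The standard errors, up to 1.90 for *Abcb1a*, leave room for changes of several fold either way. *Slc2a1*, with enough counts for a narrower error, was at -0.14 ± 0.16.

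The outcome turned on which SIT libraries were used. With all 8, which adds NT7.2.3 and NT7.2.4 to the sedentary group and NT6.304 to the ELE group, 6 of 8 members tested were called lower with ELE: *Cdh5* (-5.24), *Cldn5* (-3.10), *Slco1a4* (-2.75), *Flt1* (-1.84), *Pecam1* (-1.70) and *Kdr* (-1.46), on the log2 scale. Of all genes 5.45% were called lower in that fit. The edgeR adjusted p was 0.437 for *Cdh5* and 0.46 for *Cldn5*. The exact two-sided permutation p, whose smallest possible value here is 0.0286, was 0.0571 for *Cdh5* and 0.0857 for *Cldn5*. For all 6 genes the 2 highest sedentary values were those of the NT7.2 pair, whose other markers are given above, and without that pair none was called.

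On the left side none of the 7 members tested was called by edgeR or by DESeq2, where 0.98% of all genes were called lower. *Cldn5* was at 0.03 ± 0.66 and *Kdr* at 0.14 ± 0.34 on the log2 scale. Of the 7, *Slco1a4* was farthest from 0, -0.88 ± 0.71 with an edgeR adjusted p of 0.96, and its exact permutation p was 0.200. With 3 mice against 3 the smallest p that test can give is 0.100. *Slc2a1* was at 0.16 ± 0.13.

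On the right side all 9 members were tested and 3 were called lower with ELE, where 1.25% of all genes were called lower. The log2 fold change was -2.45 ± 0.97 for *Cldn5*, -2.36 ± 0.89 for *Tek* and -1.26 ± 0.42 for *Kdr*, with unadjusted p of 0.0299, 0.024 and 0.0126. By edgeR's adjusted p none passed, at 1 for *Cldn5*, *Tek* and *Kdr* alike. *Flt1* was at -2.25 ± 1.04, *Cdh5* at -2.26 ± 1.16 and *Abcb1a* at -2.16 ± 1.49, none of them called. *Slc2a1* was at -0.00 ± 0.16.

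The calls rested on single mice. Without TG7.3.3 none of the 9 was called, and the log2 fold change was 0.05 ± 0.71 for *Cldn5*, -0.99 ± 0.98 for *Tek* and 0.62 ± 0.69 for *Flt1*. *Kdr* kept its direction at -0.77 ± 0.41, with an unadjusted p of 0.0915. *Tek* was also not called without TG9.2.1 or TG7.3.1, nor *Cldn5* without TG9.1.3 or TG7.3.1, all of them ELE mice. Leaving out the sedentary mouse TG9.1.1 instead raised the members called to 7, where 3.61% of all genes were called. For each of the 9 genes the ELE and sedentary groups overlapped, and the exact permutation p of *Kdr* with all 6 mice was 0.200.

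Markers of other cell types were called lower with ELE in the same fits. On the right these were 5 of 6 choroid plexus markers (median log2 fold change -3.19), 3 of 4 red cell genes, the smooth muscle gene *Myh11*, the fibroblast gene *Col1a1* and the microglial gene *Cx3cr1*. Without TG7.3.3 they were 6 of 7 choroid plexus markers and 1 of 4 red cell genes, and no marker of smooth muscle, fibroblasts or microglia. The choroid plexus sum was at 61.2%, 4.47% and 1.91% of bulk in the sedentary mice TG9.2.3, TG9.1.1 and TG7.3.3 and at 0.904% to 2.30% with ELE, so that it was highest in another library than the members were. In the SIT comparison 4 of 7 choroid plexus markers and 4 of 5 red cell genes were called lower, and on the left none of either list. That comparison also called *Cspg4* (pericytes), *Col3a1* (fibroblasts) and *Pvalb* (inhibitory neurons) lower and *Prox1* (excitatory neurons) higher. Called higher elsewhere were *Slc32a1* (inhibitory neurons) on the right, also without TG7.3.3, and *Des* (smooth muscle) on the left. The part of these cell types in the exercise values was not tested.

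**Figure D5:**
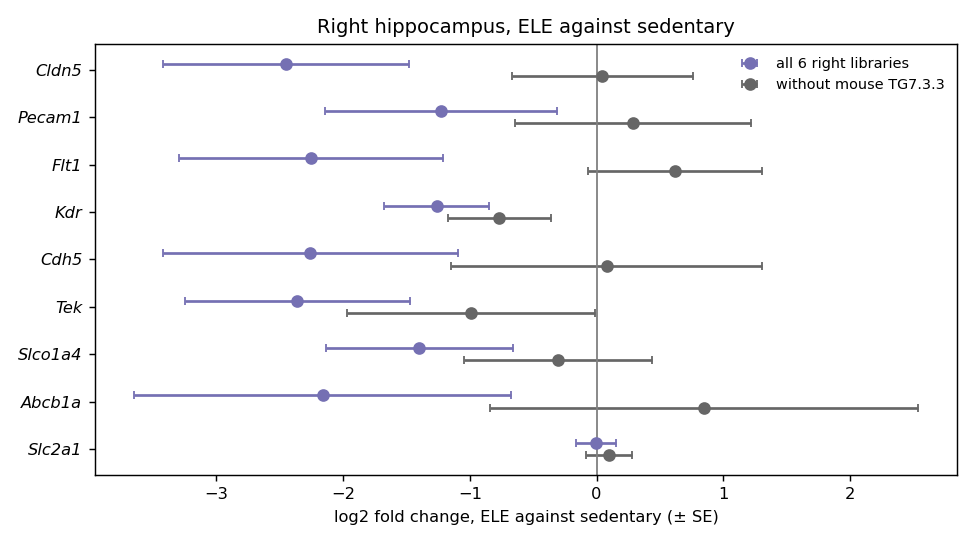
Log2 fold change of ELE against sedentary in the right hippocampus, with its standard error, for each endothelial marker gene. Purple points use all 6 libraries and grey points leave out mouse TG7.3.3, and without it the points of Cldn5, Flt1, Cdh5, Pecam1 and Abcb1a move to the right of 0.

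With both sides in 1 fit of 12 libraries, *Tek* was the only 1 of the 9 members called lower with ELE, at -2.24 ± 0.88, where 1.23% of all genes were called lower. Its edgeR adjusted p was 0.902, and it was not called without TG7.3.3 or without TG7.3.4, a left sedentary mouse at 0.484 CPM of *Tek*. *Slc2a1* was at 0.08 ± 0.11. The interaction of exercise with hemisphere was called for *Kdr* alone, where 2.21% of all genes were called in either direction. The ELE difference of *Kdr* was higher on the left than on the right by 1.40 ± 0.57 on the log2 scale, with an unadjusted p of 0.0291 and an edgeR adjusted p of 1. Without TG7.3.3 it was 0.90 with an unadjusted p of 0.117, and it was also not called without TG9.1.3, TG7.3.2, TG9.2.1, TG7.3.4 or TG9.2.4. These fits share libraries with those of the single sides.

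Among the pathway and barrier genes, the right hippocampus had 4 of 30 other endothelial genes called lower with ELE (*Tie1*, *Ptprb*, *Podxl* and *Pltp*) and 0 higher. Of all genes 1.25% were called lower there. By edgeR's adjusted p no gene was under 0.05 in the SIT, left or right comparison. Without TG7.3.3 none of the 4 named endothelial genes was called, with *Tie1* at -0.74, *Ptprb* at -0.84, *Podxl* at -0.35 and *Pltp* at -0.54 on the log2 scale. Then 1 of 30, *Slc38a5*, was called higher. On the left 2 of 29 were called higher, *Mfsd2a* and *Slc38a5*, and 0 lower. *Slc38a5*, an amino acid transporter, was also called higher in the SIT comparison and with both sides together, a fit that holds the left libraries. Of all genes 286 of 18238 were called higher in the SIT comparison, 202 of 17750 on the left and 142 of 18283 with both sides. In the SIT comparison *Podxl* and *Slco1c1* were called lower, 2 of 27, and with both sides together *Tie1* and *Pltp*, 2 of 32. Without TG7.3.3 the fit of both sides called 0 of 32 lower and 3 higher, *Eng*, *Slc38a5* and *Foxq1*, where 1.80% of all genes were called. No VEGF or angiopoietin ligand was called in the SIT or left comparison, and on the right *Vegfd* was called lower, at -0.90 ± 0.29 and, without TG7.3.3, at -1.05 ± 0.32. *Vegfa* was at -0.10 ± 0.15, 0.25 ± 0.22 and 0.14 ± 0.14 in the SIT, left and right comparisons. Of the Wnt genes only *Wnt7a* was called in these 3 comparisons, lower in the SIT comparison at -0.43 ± 0.18.

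The hemispheres were compared within each exercise group. In sedentary mice 3 of the 9 members were called lower on the left, *Cdh5* at -4.29 ± 1.39, *Flt1* at -3.23 ± 1.14 and *Kdr* at -0.85 ± 0.35 on the log2 scale, where 0.922% of all genes were called lower. The edgeR adjusted p was 1 for *Cdh5*, *Flt1* and *Kdr* alike, and without TG7.3.3 none was called, with *Cdh5* at -1.94 ± 1.37, *Flt1* at -0.36 and *Kdr* at -0.36. *Flt1* was also not called without TG9.1.2 or TG9.2.4, nor *Kdr* without TG7.3.4 or TG9.2.4. *Cdh5* had no count in 2 of the 3 left sedentary libraries, its groups did not overlap, with the left wholly lower for this 1 of the 9 members and for 3.71% of all genes, and its exact permutation p was 0.100, the smallest that 3 mice against 3 can give. Of the other endothelial genes 3 of 31 were called lower on the left, *Vwf*, *Ptprb* and *Adgrl4*, and without TG7.3.3 none of these 3 was called, at -0.54, -0.71 and -0.01. The red cell genes *Hba-a1* and *Hba-a2* were called lower on the left as well, 2 of 4 on that list, and *Hba-a1* also without TG7.3.3. In ELE mice none of the 8 members tested was called lower or higher by edgeR or by DESeq2, where 0.509% of all genes were called lower on the left. *Kdr* was there at 0.55 ± 0.43 and *Slc2a1* at 0.24 ± 0.17.

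Between the isolations, trace genes separated at the limit of counting. In sedentary mice *Tek* had no count in either of the SIT libraries NT6.305 and NT6.306 and 178 counts over the 6 separate libraries. Against a floor of 3 counts over the group, the pooled level of *Tek* was at least 19.1-fold lower with SIT, and at least 9.60-fold lower without TG7.3.3. These bounds cover counting error only, since TG7.3.3 had 101 of the counts and TG9.2.4 had 1. The SIT group lay wholly lower for this 1 of the 9 members and for 15.8% of all genes. The edgeR adjusted p of *Tek* was 0.0551. *Tek* was the only 1 of the 9 members called in that comparison, where 10.2% of all genes were called lower with SIT. With all 4 SIT sedentary libraries, of which NT7.2.3 and NT7.2.4 had *Tek* counts, it was not called. In ELE mice 2 members were called lower with SIT, where 8.85% of all genes were. *Cdh5* had no count in the 3 SIT libraries and 64 counts over the 6 separate ones. Of these, 31 were in TG9.1.3, and TG9.2.2 and TG7.3.1 had 1 each. The pooled level of *Cdh5* was at least 9.98-fold lower with SIT by counting error alone, with an edgeR adjusted p of 0.0707. Its exact permutation p was 0.0238, the smallest this design gives. The SIT group lay wholly lower for this 1 of the 9 members and for 7.16% of all genes. *Slc2a1* differed by -0.46 ± 0.15 on the log2 scale, at 21.2 CPM in the 3 SIT libraries and 28.7 CPM in the 6 separate ones, with an edgeR adjusted p of 0.0775, and was not called without NT6.303. Neither was called with all 4 SIT ELE libraries, in which NT6.304 had 33.9 CPM of *Slc2a1* and 0.230 CPM of *Cdh5*. Of the other endothelial genes 10 of 33 were called lower with SIT in sedentary mice and 6 of 29 in ELE mice. Among them were *Vwf*, *Ptprb* and *Ly6c1* in both, and *Foxq1* was called higher in sedentary mice. Leaving out TG7.3.3 gave 8 of 31 lower and 2 higher in sedentary mice, where 15.8% of all genes were called, and *Ly6c1* was no longer called. Markers of other cell types were called in the same fits. In sedentary mice 6 of 6 inhibitory neuron markers and 4 of 5 red cell genes were higher with SIT, and 5 of 8 astrocyte and 4 of 9 pericyte markers were lower. Without TG7.3.3 they were 6 of 6 and 4 of 4 higher, and 6 of 8 and 2 of 6 lower. In ELE mice 4 of 8 astrocyte and 2 of 8 pericyte markers were lower. Their part in the endothelial differences was not tested. The isolations differ also in the mice and in the use of both hippocampi or 1, which cannot be told apart.

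The members varied together in bulk, while in TRAP their correlation rested on the 3 libraries. Over the 24 bulk columns the 36 pairs of members had Pearson correlations of log2(CPM + 0.5) between 0.19 and 0.91, with a median of 0.57. Over the 20 TRAP libraries the median was 0.75, and without NT7.2.3, NT7.2.4 and TG7.3.3 it was 0.06, with pairs between -0.42 and 0.62. The 8 pairs that include *Slc2a1* had a median of 0.18 over the 20. All pairs share their libraries and depth, and at such low counts a weak correlation is no finding.

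Among the genes most like the mean of the 9 were other vascular genes. Over the 20 TRAP libraries, among 16663 genes, the 10 with the highest Pearson correlation were *Sox17*, *Slfn5*, *Aplnr*, *Adgrl4*, *Ly6c1*, *Robo4*, *Spx*, *Flt4*, *Gm4070* and *Tbx3*, from 0.94 to 0.89. Of these 10, 5 were on the lists of other endothelial or VEGF and angiopoietin genes (*Sox17*, *Adgrl4*, *Ly6c1*, *Robo4* and *Flt4*). The mean TRAP levels of the 10 were low, 0.0668 to 0.506 CPM. Without the 3 libraries none of the 10 was on those lists. Over the 24 bulk columns the 10 were *Tie1*, *Lamb2*, *Cd93*, *Sox17*, *Myh11*, *Slc6a20a*, *Adgrf5*, *She*, *Pdgfrb* and *Itpripl2*, from 0.90 to 0.80. *Tie1*, *Sox17* and *Adgrf5* are endothelial, *Pdgfrb* marks pericytes and *Myh11* smooth muscle. *Sox17* was the only gene in both sets of 10.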

How the data were processed

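TRAP RNA-seq of 20 Emx1-NuTRAP hippocampal libraries and RNA-seq of wild-type hippocampus (24 columns) were analysed from 2 deposited tables of raw counts per gene. According to the methods and the submitters' processing notes, the authors checked reads with FastQC 0.11.9, aligned them with STAR 2.7.3a, removed duplicates with Picard 1.87, made the deposited count values per gene from exons with strand in R 4.1.0, and tested them with DESeq2 1.32.0. Removing duplicates caps the counts of abundant, short genes. The TRAP table lists Ensembl genes of GRCm38 and the wild-type table gene symbols, some with a numeric suffix. The annotation of the latter is not given in the sources used here. Rows with a suffix were left out, and the tables were joined on symbols, which kept 87.0% to 98.1% of TRAP counts and 87.0% to 93.8% of bulk counts. Total counts ran from 45895097 to 65767802 per TRAP library and from 39856044 to 61636303 per bulk column, so that a count of 0 in a TRAP library allows up to 0.0484 to 0.0708 CPM (3 counts, counting error only).

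Each comparison was fitted over all genes with edgeR 4.0.16 in R 4.3.3 (filterByExpr, TMM, glmQLFit and glmQLFTest), and called at an unadjusted p under 0.05 and a change of more than 1.3-fold. TRAP against bulk was called at a Benjamini-Hochberg adjusted p under 0.05. Two-sided exact permutation tests of log2(CPM + 0.5) were run for single genes with SciPy 1.17.1. The steps were tested on simulated data. The 5 SIT libraries used were those whose mean counts matched those listed with the study, for 633 of 633 genes, against 7 with the next of 24 choices. The groups are those of the labels, but the TRAP columns carry mouse numbers that the labels lack, so each column was put in its group through the study's supplementary list of mice, which gives condition, isolation and side, and no column was tied to a single sample. The text names every member, the VEGF, angiopoietin, Wnt and paralogous genes at 1 CPM or more in any group, the 5 lowest and 5 highest of the other endothelial genes by TRAP to bulk ratio, and the 10 genes most alike in TRAP and in bulk. Other genes are named where a call singled them out, after their values were seen. The members and lists were chosen with earlier results of these data known. Alternatives were DESeq2 1.42.0, median-of-ratios scaling, no filter, other sets of libraries, leaving out each library and a replicate block. The fits to NT6 mice, without the NT7.2 pair, with 18 bulk columns, without the 3 highest libraries, with suffixed rows added and of the other lists without TG7.3.3 were chosen after seeing the data.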

Additional observations from a re-analysis of the deposited data

Results flagged for a closer look

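Of 18 sets of 4 libraries examined, the 9 members in SIT ELE and in SIT sedentary mice, 1 passed the limit of Dixon's test, and chance marks about 1 in 20. It was *Cdh5* among the 4 SIT ELE libraries, at 0.230 CPM in NT6.304 and 0 in the other 3. With 3 values of exactly 0 any other value passes that limit, so the test says nothing of how far the library lies. NT6.304 is also the library that the study's SIT comparison left out.

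The change of *Kdr* with ELE differed between the hemispheres, with an interaction of 1.40 ± 0.57 (SE) on the log2 scale, an unadjusted p of 0.0291 and an edgeR adjusted p of 1. The ELE difference was 0.14 on the left and -1.26 on the right. Without TG7.3.3 the interaction was 0.90, with an unadjusted p of 0.117.

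Counts outside the comparisons were found for claudin-5. The row numbered as a second *Cldn5* in the wild-type table held 16822 counts over the 24 columns, about as many as the 17069 of the first. With both rows added, *Cldn5* in TRAP was lower than in bulk by a log2 fold change of -4.32 in place of -3.35.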

How the results depend on the processing

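The low level of the 9 genes in TRAP against bulk kept its direction and its call under all alternatives run, and 8 of the 9 stayed under a log2 fold change of -2. The exercise calls rest on few counts and few libraries. Members called without the filter on low counts were 1 in the SIT comparison, 7 on the right, 3 over both hemispheres, 4 for the interaction and 7 between sedentary hemispheres, where 3.59%, 2.67%, 3.31%, 3.56% and 2.67% of all genes were called. DESeq2 called 2 over both hemispheres and 2 for the interaction (2.41% and 2.60% of all genes), and gave no p for *Cldn5* on the right and *Flt1* between sedentary hemispheres. With all 8 SIT libraries 6 members were called with ELE (7.84% of all genes). In either comparison of isolations, where the 4 of each group were used, 0 were called. Of all genes 16.4% were called there in sedentary and 11.4% in ELE mice. Leaving out 1 library at a time, the members called ranged from 0 to 1 on the left, 0 to 7 on the right and 0 to 3 over both hemispheres. They ranged from 0 to 3 for the interaction, 0 to 7 between sedentary hemispheres and 0 to 1 between ELE hemispheres. Between isolations with ELE they were 1 to 2 (12.3% to 14.6% of all genes). No range is given for the SIT comparison, where leaving out a sedentary library leaves 1. On the right and between sedentary hemispheres the highest counts came without TG9.1.1, where 3.61% and 2.24% of all genes were called. The counts of 0 there came without TG7.3.3, where 2.10% and 2.87% were called. The calls on the left were *Slco1a4* without TG7.3.2 (5.34% of all genes) and *Cdh5* without TG7.3.4 (1.23%). That between ELE hemispheres was *Tek* without TG7.3.2 (1.65%). Over both hemispheres 3 members were called without TG7.3.2 (3.21% of all genes) and 0 without TG7.3.3 or TG7.3.4 (1.80% and 1.62%). For the interaction 3 were called without TG9.2.3 (2.63%). The log2 fold change of *Cldn5* on the right ranged from -2.97 without TG9.1.1 to 0.0454 without TG7.3.3, where its direction turned. The cause was not tested. With a replicate block on the first part of the mouse number, members called were 2 on the right (*Abcb1a* and *Kdr*), 4 between sedentary hemispheres, 1 over both, 1 for the interaction (1.80%, 1.64%, 2.41% and 2.23% of all genes) and 0 in the SIT, left and ELE hemisphere comparisons. Deviations of mice that share this number correlated between -0.10 and 0.58 over 18 pairs, so that the number was not taken as a pairing. Over all alternatives, all genes called were 357 to 1375 (against 681) for SIT, 225 to 975 (against 376) on the left, 311 to 719 (against 351) on the right, 302 to 972 (against 366) over both, 357 to 1047 (against 416) for the interaction, 264 to 730 (against 303) and 217 to 611 (against 241) between hemispheres without and with ELE, and 2784 to 3727 (against 3016) and 2043 to 3283 (against 2446) between isolations. TRAP against bulk gave 9887 to 14300 (against 10005), counted here at an unadjusted p under 0.05 like the other comparisons. Depth limits *Tek*, *Cdh5* and *Abcb1a*, which had no count in 6, 5 and 2 of the 20 TRAP libraries.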
